A study of Mus musculus with 8 samples.

Results

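Pax6 binding was examined at 10 genes of prolactin and growth hormone signalling in the mouse cell line alphaTC1, which derives from glucagon-secreting alpha cells of the pancreas. The genes were Prlr, Ghr, Jak1, Jak2, Stat3, Stat5a, Stat5b, Socs2, Socs3 and Cish. All sites that the authors' deposited table assigned to 1 of these genes were taken, which gave 27 sites of the 26244 listed. The sites belonged to 7 of the 10 genes, and Jak2, Socs2 and Cish had none. Pax6 ChIP-seq had been done on cells treated with antisense oligonucleotides that target Paupar (Paupar KD) or with a scrambled control sequence (Control KD). Paupar is a long non-coding RNA whose gene neighbours Pax6. Each group had 2 Pax6 ChIP libraries, and all were of the same cell line. The input libraries were not analysed here. Pax6 sites were listed at 7 of 7 alpha-cell marker genes, Gcg among them, at 2 of 2 delta-cell markers and at 3 of 5 beta-cell markers, with none at Ins1 and Ins2. ChIP-seq gives no RNA level, so neither the identity of the cells nor the knockdown was measured.

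Prolactin and growth hormone bind class I cytokine receptors, encoded by Prlr and Ghr, which have no kinase domain of their own. The receptor-bound kinase Jak2 phosphorylates the receptor and the transcription factors Stat5a and Stat5b, which then enter the nucleus. Cish and Socs2 are Stat5 target genes whose products damp the receptor. Jak1, Stat3 and Socs3 act downstream of receptors of the interleukin-6 family, among others. In islets the prolactin receptor is best known from beta cells, where it acts in the adaptation to pregnancy. Pax6 binds DNA through a paired domain and a homeodomain, and islet endocrine cells depend on it.

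The signal of a site is its concentration, the authors' log2 mean of the ChIP signal in a window of 100 bp over the 2 libraries of a group. No value per library is given, so no error can be set beside it, and the FDR is that of the authors' own test, made with DiffBind per the processing notes. The genes were chosen by these concentrations and FDRs as well as by their pathway, and the values are therefore given as a description. Of the 27 sites, 4 were higher after Paupar KD at an FDR below 0.05 and 0 were lower, in the authors' deposited table. Of all sites, 4.10% were called in either direction, 3.26% higher and 0.846% lower. Below an FDR of 0.1, 5 of the 27 were higher and 1 lower, where 4.99% of all sites were higher and 1.80% lower (6.79% together). Below an FDR of 0.01, 0 of the 27 were higher and 0 lower, where 1.39% of all sites were higher and 0.137% lower (1.53% together). At an unadjusted p below 0.05 in the authors' test, 7 of the 27 sites were higher and 3 lower, where 10.7% of all sites were higher and 6.67% lower. The receptor gene Prlr held 3 of the 4 called sites and Stat3 the other.

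Prlr encodes the prolactin receptor. Its 4 sites lay over a stretch of chromosome 15 that begins 101 kb upstream of the gene and ends 105 kb inside it. An intergenic site 101 kb upstream (chr15:10075795-10075894, mm10) had a concentration of 5.21 after Paupar KD and 2.75 after Control KD in the authors' deposited table (log2 change 2.47, FDR 0.0260). A promoter site (chr15:10223836-10223935) had 5.31 after Paupar KD and 3.11 after Control KD in the authors' deposited table (log2 change 2.20, FDR 0.0303). This promoter is an internal one, 46.6 kb downstream of the first RefSeq start of Prlr. A site in intron 1 of 8 (chr15:10281711-10281810) had 5.65 after Paupar KD and 3.77 after Control KD in the authors' deposited table (log2 change 1.87, FDR 0.0323). The last site, in the same intron (chr15:10254887-10254986), had 3.36 after Paupar KD and was listed at -0.01, the lowest value given for the group, after Control KD in the authors' deposited table. This site has an FDR of 1 beside a p of 0.0407 in the authors' deposited table, as if left out of the adjustment; 1010 sites of the table are of this kind, all in the lowest quartile of mean concentration. All 4 sites had the higher mean in Paupar KD, and the 3 called ones were of similar strength.

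Both Paupar KD libraries had a summit at each of the 3 called Prlr sites, with the higher score in replicate 1. These scores were read as the authors' −log10 of a q-value, which was inferred from the lowest scores of the lists. In order along the chromosome from the upstream site, they were 29.3, 20.6 and 26.4 in Paupar KD replicate 1. In Paupar KD replicate 2 they were 18.0, 18.7 and 15.2. Both Control KD lists had no summit within 250 bp of any Prlr site. Of all 26244 sites, 10838 had no Control KD summit. A summit in both Paupar KD libraries and in no Control KD library was found at 8.26% of all sites. Prlr was 1 of 57 genes with at least 3 sites of that kind. The scores at the called Prlr sites stood at the 76.7 to 85.1 percentile of the list of Paupar KD replicate 1 and at the 68.3 to 75.5 percentile of that of replicate 2. At the fourth site only Paupar KD replicate 1 had a summit (score 9.56). The Control KD summits on either side of the gene lay 1.29 Mb apart (positions 9133058 and 10421642). Of the 24211 gaps between neighbouring Control KD summits in the genome, with both lists pooled, 370 were at least as long. The median gap was 9.97 kb, and pooling shortens gaps where both lists have a summit at the same place. Long gaps cover more of the genome than their count shows, and the share by length was not computed. The stretch was poor in sites for both groups. Its only listed sites were the 4 of Prlr, and it held 5 and 3 summits of Paupar KD replicates 1 and 2. No gap is given here for Paupar KD. The 3 called sites, without a Control KD summit, had Control KD concentrations of 2.75 to 3.77 in the authors' deposited table. The median Control KD concentration there was 4.34 over all sites and 2.70 in the lowest quartile of mean concentration. As the inputs were not analysed, these values cannot be told apart from background.

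The size of these changes was read against sites of similar strength, because changes differed with signal: the median log2 change was 0.72 in the lowest quartile of mean concentration and -0.36 in the highest, in the authors' deposited table. The 3 called Prlr sites fell in the third quartile of mean concentration (4.43 to 5.38), with a median of -0.12 over 6533 sites in the authors' deposited table. Their changes stood at the 97.1, 96.4 and 95.5 percentile of that quartile. Of its 6533 sites, 244 were called higher. The 3 sites were picked because they were called for this same change, so high percentiles follow from the choice and are only a description. Of the 10195 genes named in the table, 753 had at least 1 site called higher, and Prlr was 1 of 21 genes with 3 or more.

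The internal Prlr promoter and the Stat3 promoter are shown because a Pax6 site lay whole inside each of their RefSeq windows, which reach from 250 bp before to 50 bp after a transcript start. Both are written 5′ to 3′ on the strand of the gene (GRCm38.p6, the assembly of mm10), with the 100 bp of the Pax6 site in capitals.
Prlr (chr15:10223656-10223955, plus strand): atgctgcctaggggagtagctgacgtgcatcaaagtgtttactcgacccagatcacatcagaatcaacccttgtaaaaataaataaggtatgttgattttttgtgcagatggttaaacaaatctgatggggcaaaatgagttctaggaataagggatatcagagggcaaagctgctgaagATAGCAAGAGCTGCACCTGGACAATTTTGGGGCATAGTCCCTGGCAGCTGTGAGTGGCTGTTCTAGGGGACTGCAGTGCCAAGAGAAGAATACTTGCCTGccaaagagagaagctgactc
Stat3 (chr11:100939491-100939790, minus strand): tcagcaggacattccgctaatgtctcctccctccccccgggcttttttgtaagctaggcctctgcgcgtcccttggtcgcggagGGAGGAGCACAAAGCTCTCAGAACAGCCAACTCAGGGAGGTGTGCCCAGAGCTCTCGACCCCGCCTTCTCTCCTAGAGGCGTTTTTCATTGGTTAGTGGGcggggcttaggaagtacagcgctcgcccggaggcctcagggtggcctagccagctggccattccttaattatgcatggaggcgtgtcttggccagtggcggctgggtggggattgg
The Prlr site covered positions -70 to 29, with the RefSeq start counted as 0, and the Stat3 site positions -166 to -67. The GC content was 53% in the Prlr site and 57% in the Stat3 site, against a median of 59% over the 1227 site windows that lay inside a RefSeq promoter. Both strands were searched for TTCACGC, the core of the paired-domain consensus of Pax6, for the homeodomain palindrome TAATTA and for the STAT motif TTCNNNGAA. Neither site held any of them. Among the 1227 windows, TTCACGC was in 1.06%, TAATTA in 0.733% and TTCNNNGAA in 4.07%. Outside the sites, the Stat3 promoter had a TAATTA at positions -1 to 4 and the Prlr promoter a STAT motif, TTCTAGGAA, at -110 to -102. No matches overlapped each other in the promoters of the 9 genes that had a RefSeq promoter.

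**Figure D1:**
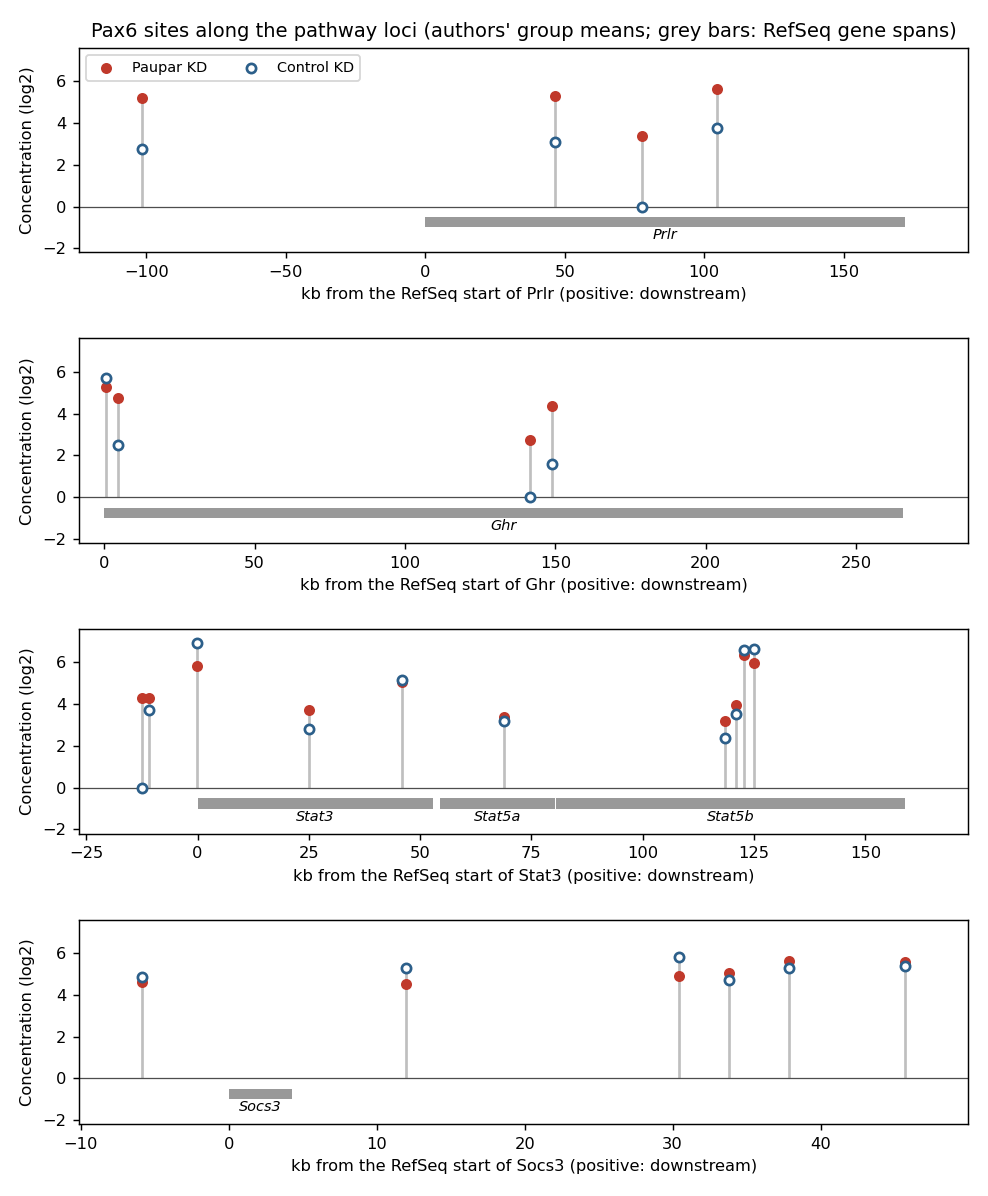
Authors' mean Pax6 concentration (log2) at each site, with Paupar KD as filled and Control KD as open points, against the distance in kb from the RefSeq start of Prlr, Ghr, Stat3 (with Stat5a and Stat5b) and Socs3, from top to bottom; grey bars are RefSeq gene spans. At Prlr the Paupar KD points lie above the Control KD points at 4 of 4 sites, while at Socs3 they lie above at 3 of 6.

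Ghr, the growth hormone receptor gene, had no called site among its 4. Its strongest lay at a promoter (chr15:3582675-3582774), with 5.27 after Paupar KD and 5.71 after Control KD in the authors' deposited table (FDR 0.653). The 3 others were intronic. A site in intron 1 of 10 (chr15:3578735-3578834) had 4.76 after Paupar KD and 2.48 after Control KD in the authors' deposited table (FDR 0.0850). In intron 2, a site at chr15:3434583-3434682 had 4.38 after Paupar KD and 1.61 after Control KD in the authors' deposited table (FDR 0.1). Another in that intron (chr15:3441620-3441719) had 2.73 after Paupar KD and was listed at -0.01 after Control KD in the authors' deposited table, and its FDR was 1. The intronic sites were thus higher in the Paupar KD mean, but none passed the threshold.

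Unlike at the 3 called Prlr sites, and as at the uncalled one, the 2 Paupar KD libraries differed in their summits at these introns. Each of the 3 intronic Ghr sites had a summit in Paupar KD replicate 1 (scores 13.9, 14.3 and 4.24) and in no other library. At the promoter site there was a summit in Paupar KD replicate 2 (5.90) and in Control KD replicate 1 (3.22) and none in Paupar KD replicate 1. The RefSeq span of Ghr held 2 further sites that the authors assigned to Ccdc152. One (chr15:3381409-3381508) had 3.43 after Paupar KD and 2.07 after Control KD in the authors' deposited table (FDR 0.657), and a summit in Paupar KD replicate 1 only. The other (chr15:3323508-3323607) was listed at -0.02, the lowest value, after Paupar KD and had 2.77 after Control KD in the authors' deposited table, and a summit in Control KD replicate 2 only.

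**Figure D2:**
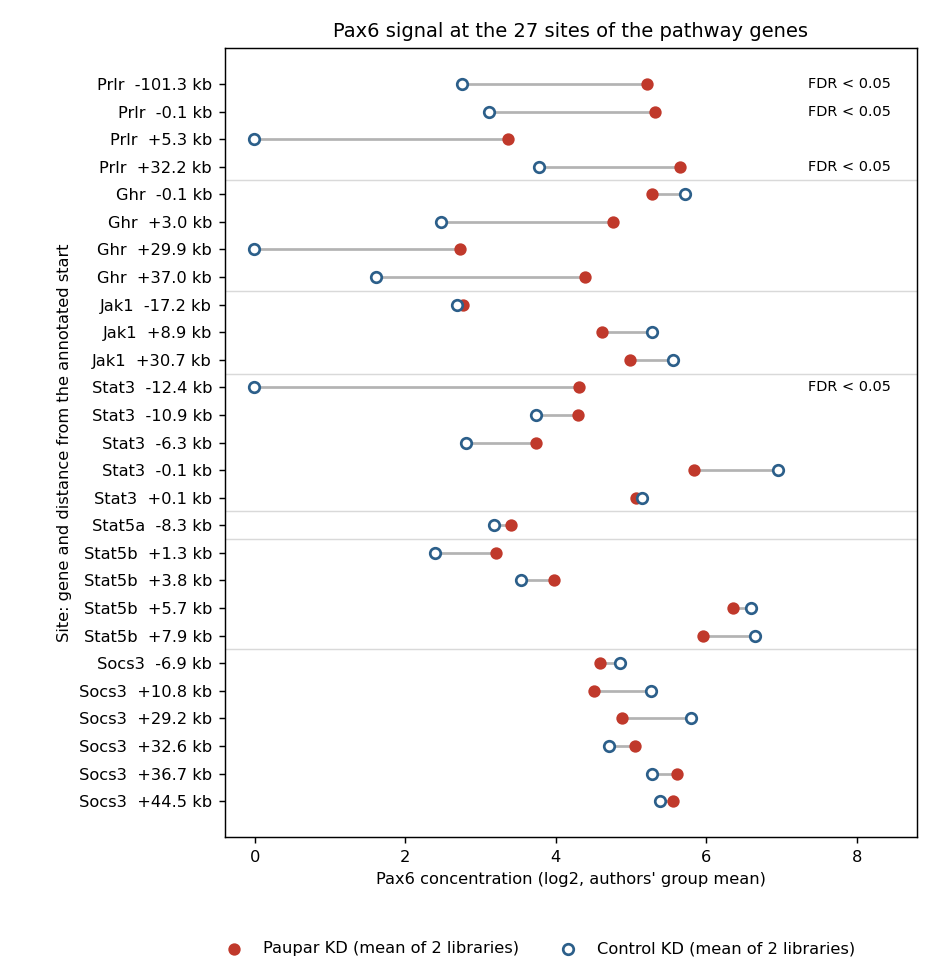
Each row is 1 of the 27 sites, named by its gene and its distance in kb from the transcript start the authors assigned; filled points are the Paupar KD mean and open points the Control KD mean of the authors' Pax6 concentration (log2). The widest spreads are at Prlr, Ghr and the Stat3 site at -12.4 kb, and points next to 0 on the left are sites listed at the lowest value in Control KD.

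Of the kinase genes, Jak2, whose product both receptors use, had no listed site. The nearest lay 42.6 kb beyond the gene and was assigned to Plgrkt (4.55 after Paupar KD and 4.43 after Control KD, FDR 0.956, in the authors' deposited table). In the authors' deposited table, Jak1 had 3 sites and none was called (FDR 0.555 to 0.981). The strongest (chr4:101234440-101234539), in intron 1 of 24, had 4.99 after Paupar KD and 5.55 after Control KD in the authors' deposited table. It had a summit in all 4 libraries, with scores of 23.6 and 15.2 in Paupar KD and 24.9 and 8.74 in Control KD. A second Jak1 site (chr4:101146125-101146224; 4.61 after Paupar KD and 5.27 after Control KD in the authors' deposited table) lay in intron 11 of 11 of the neighbouring gene Raver2, so its tie to Jak1 is one of distance alone. The weakest, at 2.77 after Paupar KD and 2.69 after Control KD in the authors' deposited table, was found by a summit of Paupar KD replicate 2 only.

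Stat3, Stat5a and Stat5b lie side by side on chromosome 11, and their 10 sites spanned 137 kb. Stat5b, which encodes the Stat5 form best known from growth hormone action in the liver, had the site with the highest summit scores of the 27. It and a neighbour lay in intron 1 of 18, 5.65 and 7.86 kb downstream of an internal start of the gene. The first (chr11:100816775-100816874) had 6.35 after Paupar KD and 6.59 after Control KD in the authors' deposited table (FDR 0.770). All 4 libraries had a summit there within 250 bp, with scores of 37.7 and 53.3 in Paupar KD and 64.7 and 35.3 in Control KD, at the 89.4 to 94.1 percentile of their lists. Within 100 bp, only 2 libraries had one, Paupar KD replicate 2 and Control KD replicate 1. The second (chr11:100814573-100814672) had 5.96 after Paupar KD and 6.65 after Control KD in the authors' deposited table (FDR 0.28), with summits in every library but Control KD replicate 2. The other Stat5b sites were weaker, at 3.98 and 3.21 after Paupar KD and 3.53 and 2.39 after Control KD in the authors' deposited table, each backed by a summit of Paupar KD replicate 2 only. Stat5a, the partner gene best known from prolactin action in the mammary gland, had a single weak site in intron 6 of 19 (3.40 after Paupar KD and 3.18 after Control KD, FDR 0.941, in the authors' deposited table). No Stat5 site was called.

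Stat3 encodes the STAT factor of interleukin-6 signalling. It had 1 called site and 1 just past the threshold, whose group means differed in opposite directions. An intergenic site 12.4 kb upstream (chr11:100951933-100952032) had 4.31 after Paupar KD and was listed at -0.01 after Control KD in the authors' deposited table (FDR 0.0306). Of the 4 libraries, Paupar KD replicate 2 alone had a summit of low score there (4.56, the 17th percentile of its list), and the nearest summit of Paupar KD replicate 1 lay 270 bp away, just past the 250 bp allowed. The promoter site printed above (chr11:100939607-100939706) had 5.83 after Paupar KD and 6.95 after Control KD in the authors' deposited table (log2 change -1.11, FDR 0.0522). It lay just upstream of the RefSeq span of Stat3, with its middle inside the span of another gene, Gm46295. It was the uncalled site nearest to the threshold, and the Prlr site in intron 1 at an FDR of 0.0323 was the called site nearest to it. It belonged to the highest quartile of mean concentration, and its change stood at the 2.20 percentile there. A summit was found in Control KD replicate 2 alone (score 9.60), 114 bp from the middle of the window. Of the 1318 sites within 0.25 of its mean concentration of 6.50, 66.2% had a summit in all 4 libraries and 12.7% in 1.

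In the authors' deposited table, the remaining Stat3 sites had an FDR between 0.717 and 0.96. A site that the authors classed as promoter (chr11:100893582-100893681) lay 46.0 kb inside the gene, at the start of a short transcript. It had 5.06 after Paupar KD and 5.15 after Control KD in the authors' deposited table, with summits in every library but Control KD replicate 2. A site in intron 1 of 23 had 3.74 after Paupar KD and 2.81 after Control KD in the authors' deposited table, and a site 10.9 kb upstream had 4.30 after Paupar KD and 3.74 after Control KD. The intronic site was backed by a summit of Paupar KD replicate 1 only and the upstream one by a summit of Control KD replicate 2 only.

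**Figure D3:**
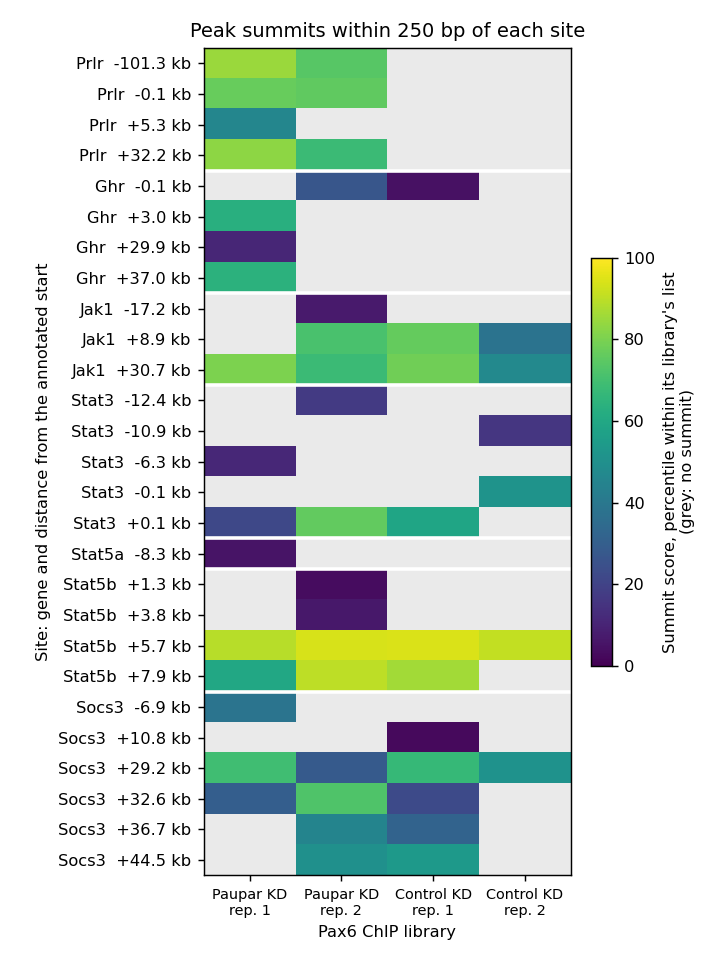
Rows are the 27 sites in the same order as in the plot of concentrations, columns the 4 Pax6 ChIP libraries; colour gives the percentile of the summit score within the list of its library, and grey marks no summit within 250 bp. Prlr rows are coloured in Paupar KD columns only (the site at +5.3 kb in replicate 1 alone), the intronic Ghr rows in Paupar KD replicate 1 only, and the Stat5b site at 5.7 kb in all 4.

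Among the feedback inhibitors, Socs3, which damps Jak kinases at receptors of the interleukin-6 family, had 6 sites, all intergenic and none at its promoter. They spanned 51.6 kb, 1 of them 6.93 kb upstream and the others 10.8 to 44.5 kb downstream of the start. Concentrations ranged over 4.51 to 5.61 after Paupar KD and 4.70 to 5.80 after Control KD in the authors' deposited table. In the authors' deposited table the log2 changes ran between -0.92 and 0.35, 3 above 0 and 3 below, and the FDRs between 0.253 and 0.894. The site 29.2 kb downstream (chr11:117939866-117939965) was the one with summits in all 4 libraries within 250 bp, scoring 16.2 and 6.13 in Paupar KD and 17.2 and 9.42 in Control KD. Within 100 bp, only 2 libraries had a summit there, Paupar KD replicate 2 and Control KD replicate 2. The concentration of this site was 4.88 after Paupar KD and 5.80 after Control KD in the authors' deposited table (FDR 0.253). The 3 sites farther out had 5.05, 5.61 and 5.55 after Paupar KD and 4.70, 5.27 and 5.38 after Control KD in the authors' deposited table. All 3 had summits in Paupar KD replicate 2 (scores 17, 8.65 and 9.64) and in Control KD replicate 1 (6.11, 7.62 and 12.3). Closer to the gene, the site 10.8 kb downstream had 4.51 after Paupar KD and 5.26 after Control KD in the authors' deposited table and a summit in Control KD replicate 1 only (2.75). The upstream site had 4.59 after Paupar KD and 4.85 after Control KD in the authors' deposited table and a summit in Paupar KD replicate 1 only (8.20). Socs3 was thus without a site that passed the threshold, and its sites were close to each other in strength.

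Socs2 and Cish, the Stat5 targets, had no listed site. Nearest to Socs2 was a site 21.9 kb away assigned to 5730420D15Rik (3.54 after Paupar KD and 3.06 after Control KD, FDR 0.864, in the authors' deposited table). Nearest to Cish was one 17.7 kb away assigned to Mapkapk3 (4.77 after Paupar KD and 5.06 after Control KD, FDR 0.847, in the authors' deposited table). RefSeq promoters were found for 9 of the 10 genes, 14 windows in all, and not for Socs2. The Cish promoter held the STAT motif at 2 positions, TTCCTGGAA at 0 to 8 and TTCTTGGAA at 11 to 19, and the Socs3 promoter once, TTCTTAGAA at -154 to -146. With the Prlr window, 3 of the 14 windows had it, against 8.30% of all 32851 RefSeq promoters. TAATTA was in 1 of the 14 windows and 5.29% of all promoters, and TTCACGC in 0 of the 14 and 1.26% of all.

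Over the 27 sites the median log2 change was 0.34 in the authors' deposited table, against -0.03 over all sites, and 17 sites lay above 0 and 10 below. The median was below 0 over the sites with summits in at least 2 libraries (-0.09) and over the strongest site of each gene (-0.24). Both choices favour stronger sites. Over all sites the median was -0.12 in the third quartile of mean concentration and -0.36 in the highest, in the authors' deposited table. No median of all sites under the same choices was computed. By gene, 4 of 4 Prlr sites, 3 of 4 Ghr sites, 1 of 3 Jak1 sites, 3 of 5 Stat3 sites, 1 of 1 Stat5a site, 2 of 4 Stat5b sites and 3 of 6 Socs3 sites lay above 0. The median was 2.38 over the 8 sites of the receptor genes and 0.09 over the 19 others in the authors' deposited table, a description from the same values that chose the genes. Without the 3 sites listed at the lowest value in Control KD, for which a change depends on that value, the medians were 2.24 for the receptor genes and 0.00 for the others. Summits were in Paupar KD libraries alone at 14 of the 27 sites (37.8% of all sites), in Control KD libraries alone at 3 (15.8%) and in both groups at 10 (42.9%). By library, 16 of the 27 sites had a summit in Paupar KD replicate 1 (59.3%, against 54.4% of all sites) and 17 in replicate 2 (63.0%, against 63.1%), shares near those of all sites. Control KD replicate 1 had a summit at 11 (40.7%, against 49.96% of all sites) and replicate 2 at 6 (22.2%, against 34.9%). The whole lists also differed in length, with 15611 and 17942 summits in Paupar KD and 14311 and 9983 in Control KD. What part these lengths had in the counts by library was not tested. Sites of a gene share its surroundings and are not replicates of the treatment.

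**Figure D4:**
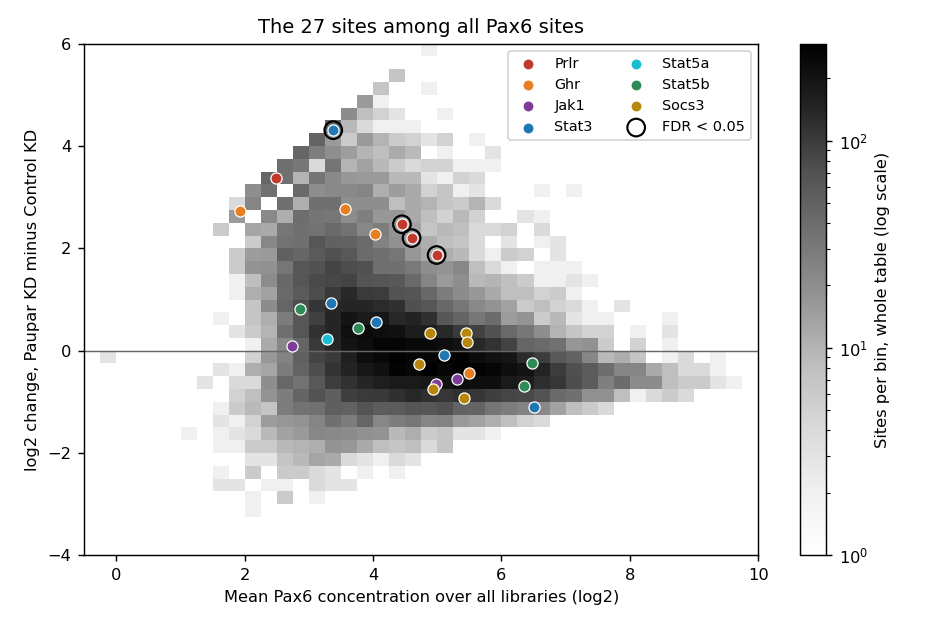
The log2 change (Paupar KD minus Control KD) of each of the 27 sites, coloured by gene, against its mean Pax6 concentration over all libraries (log2), on the density of all 26244 sites in grey bins; black rings mark an FDR below 0.05. The called Prlr sites lie at changes of 1.87 to 2.47 above the bulk of sites of like strength, and the 3 sites listed at the lowest value in Control KD lie along the upper left edge.

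Other genes of the JAK-STAT pathway and genes linked to it were examined as a list of 69 genes, of which 47 had sites, 104 in all. Of the 69 genes, 17 were listed as targets and beta-cell growth genes, with 32 of the 104 sites. The list is thus wider than the pathway itself. In the authors' deposited table, 1 of the 104 sites was called higher and 0 were called lower, or 0.962%. Of all sites, 4.10% were called, 3.26% higher and 0.846% lower. At an unadjusted p below 0.05 in the authors' test, 7 of the 104 were higher and 7 lower, where 10.7% of all sites were higher and 6.67% lower. The median log2 change was -0.25 in the authors' deposited table. The called site lay in an intron of Pias2, which encodes a SUMO ligase of the PIAS family, 12.4 kb from the start. It had 6.46 after Paupar KD and 3.59 after Control KD in the authors' deposited table (log2 change 2.87, FDR 2.13e-06). As at the called Prlr sites, both Paupar KD libraries had a summit (scores 48.3 and 31.2) and neither Control KD library did. That pattern was found at 8.26% of all sites.

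The strongest site of each role group of that list was not called. Among ligands it was at the Epo promoter (6.15 after Paupar KD and 6.81 after Control KD, FDR 0.247), and among receptors in the 3′ end of Il4ra (5.91 after Paupar KD and 6.38 after Control KD, FDR 0.512), in the authors' deposited table. For kinases it was at the Tyk2 promoter (4.86 after Paupar KD and 5.22 after Control KD, FDR 0.776), and for STAT factors at the Stat2 promoter (5.86 after Paupar KD and 6.37 after Control KD, FDR 0.471), in the authors' deposited table. Inhibitors and phosphatases were led by the promoter of Socs5 (6.15 after Paupar KD and 6.14 after Control KD, FDR 0.987) and adaptors by that of Sh2b1, a Jak2-binding adaptor gene (6.71 after Paupar KD and 7.47 after Control KD, FDR 0.172), in the authors' deposited table. Among targets and growth genes the cyclin gene Ccnd1 led, with 6.85 after Paupar KD and 7.45 after Control KD in an intron (FDR 0.203) and summits in all 4 libraries, in the authors' deposited table. Gh, the growth hormone gene itself, had 2 intergenic sites with 4.73 and 4.08 after Paupar KD and 5.45 and 4.28 after Control KD (FDR 0.465 and 0.921) in the authors' deposited table.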

How the data were processed

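Pax6 ChIP-seq was read in 4 ChIP libraries, 2 per group, of the 8 samples. Per the submitters' processing notes, the authors used Bowtie2, MACS2, DiffBind and ChIPseeker on mm10, and no versions are given; the normalization, the test and the use of the inputs were not given in the sources used here. Concentrations and fold were taken as log2 values of the authors, since the deposited mean equalled the log2 of the mean linear group values within 0.02 at 100.0% of sites; the deposited fold, Control KD minus Paupar KD, was turned in sign. The authors' p-values and FDR were used as deposited (called: FDR below 0.05), and no site was tested anew. At 1010 sites the FDR was 1 with p below 0.99. Summit scores in the deposited lists were read as the authors' −log10 of q, as MACS2 writes it, from their lowest values of 2.00 to 2.01. The list of Control KD replicate 2 was assigned by the sample it belongs to, since the list itself carries another number.

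Sites were taken by gene symbol, matched to the highest-scoring summit within 250 bp of the middle (tested on simulated data), and described by counts and medians in Python 3.11.15 with pandas 2.3.3. Coordinates are 1-based. RefSeq spans, promoters and sequences are of GRCm38.p6. The rule for named sites was all sites of the 10 genes, and of the list of 69 further genes those called and the strongest of each role. Both Gh sites, the 2 Ccdc152 sites and the sites nearest to Jak2, Socs2 and Cish were named after their values were seen. Genes and lists were chosen with earlier results of these data known. The design text calls the 2 libraries of a group biological duplicates. Read depth is unknown, so no counting interval is given.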

Additional observations from a re-analysis of the deposited data

How the results depend on the processing

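Counts of called sites depended on the threshold. At an FDR below 0.01, 0 of the 27 sites were higher; at an FDR below 0.1, 5 were higher and 1 lower; and at an unadjusted p below 0.05, 7 were higher and 3 lower by the authors' values. For the 104 sites of the list of 69 further genes, 2 were higher at an FDR below 0.1. At an unadjusted p below 0.05 in the authors' test, 7 were higher and 7 lower. Of all sites, 1.39% were higher at an FDR below 0.01. At an FDR below 0.1, 4.99% of all sites were higher and 1.80% lower, and at an unadjusted p below 0.05, 10.7% were higher and 6.67% lower. Sites within 100 kb, sites with summits in at least 2 libraries and sites off the floor each gave 3 higher sites, and matching by Entrez ID gave 4. The median log2 change of the 27 sites, 0.34, was 0.28 within 100 kb, 0.195 without sites at the floor, 0.21 relative to the median of the quartile of mean concentration, -0.09 for sites with summits in at least 2 libraries and -0.24 for the strongest site of each gene; the cause was not tested. A summit lay within 250 bp in at least 1 library at all 27 sites, within 100 bp at 23, and at 18 with a score of at least 5; without each library in turn the count was 20 to 26. No paired analysis was possible because the deposited table holds group means and no value per library, so calls could not be refitted without a library either.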

Other observations

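Control KD replicate 1 had a summit in Stat5b at position 100817797 of chromosome 11 (score 12.6) that lay 888 bp from the nearest listed site and so entered no comparison. The span of Stat5b also held a site that the authors assigned to Ghdc (chr11:100783203-100783302), with 2.59 after Paupar KD and 3.41 after Control KD in the authors' deposited table (FDR 0.753). Its summit was in Control KD replicate 1 (score 4.29), and no other library had one.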
